A study of Mus musculus with 9 samples.

Results

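On this mouse array, 125 of 12488 probe sets carried a single gene symbol beginning with Rpl, Rps, Mrpl or Mrps, the names given to proteins of the ribosome. Rpl and Rps mark the large and small subunits of the cytosolic ribosome, and Mrpl and Mrps those of the mitochondrial ribosome. The cytosolic names took 49 probe sets of 35 genes, and the mitochondrial names 76 probe sets of 61 genes. The 3 probe sets of the Rps6k kinases, which phosphorylate a ribosomal protein and are not part of the ribosome, were left out. RNA came from both ventricles of the heart of female mice aged 3 months, with 1 array for each of 9 mice. All 9 mice carried a transgene that overexpresses the insulin-like growth factor 1 receptor (IGF1R), and 3 of them carried nothing else. Another 3 (IGF1R-caPI3K) also carried a constitutively active p110 subunit of phosphoinositide 3-kinase (PI3K), the kinase that relays the receptor's signal. The last 3 (IGF1R-dnPI3K) carried a dominant negative p110, a form that blocks the kinase. The labels name neither the promoter nor the cell type that drives the transgenes. Mice without transgenes, and mice with a PI3K transgene alone, were not analysed here, so the controls of each comparison also overexpress the receptor.

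Cytosolic ribosomes make nearly all proteins of the cell, and their protein subunits are encoded by nuclear genes whose messenger RNAs are among the most abundant in heart muscle. These messenger RNAs start with a run of pyrimidines, the TOP motif, and their translation is raised by mTOR, a kinase downstream of PI3K. Control by that route acts mainly on translation, which an array of messenger RNA does not measure. Mitochondrial ribosomes are separate particles inside the organelle that make a small set of respiratory chain subunits from mitochondrial DNA. Their proteins are also encoded in the nucleus, made in the cytosol and imported.

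The upstream sequences of these genes are shown because short motifs recur in both classes. RefSeq (GRCm38.p6) held promoters of 28 of the 35 cytosolic genes, with 37 transcription starts, and of 54 of the 61 mitochondrial genes, with 60 starts. Each window covered 250 bases before and 50 after a start, and both strands were searched. The core of the site bound by ETS factors, CCGGAAG, lay in 12 of the 37 cytosolic windows (32.4%) and in 19 of the 60 mitochondrial windows (31.7%). Among all 32851 promoters of the same length the share was 8.86%. The core of the YY1 site, GCCATNTT, lay in 27% of the cytosolic, 28.3% of the mitochondrial and 6.05% of all windows. TATAAA, the TATA box, lay in 10.8%, 8.33% and 13.6%. A window was counted once for a motif however many matches it held, and matches of different motifs were counted whether or not they overlapped. A run of at least 8 pyrimidines within 30 bases of the start, read on the gene's own strand, lay in 40.5% of cytosolic, 21.7% of mitochondrial and 22.9% of all windows. The shares with an ETS or YY1 core were higher in both classes, and that with a pyrimidine run in the cytosolic class, than over all promoters. They are descriptions and were not tested. At the 13 starts of cytosolic genes with a probe set that rose in IGF1R-dnPI3K hearts, 7 windows (53.8%) held an ETS core, 1 (7.69%) a YY1 core and 5 (38.5%) a pyrimidine run. In all, 21 genes had a probe set that passed there, and RefSeq held promoters of 18 of them. In the 100 bases before the first listed start, 6 of the 18 held an ETS core, 2 a YY1 core and 10 neither. The 10 are Rpl6, Rpl7a, Rpl10a, Rpl13a, Rplp0, Rpsa, Mrpl18, Mrpl23, Mrps10 and Mrps31. Of them 4, Rpl6, Rpl13a, Rpsa and Mrpl18, held a core elsewhere in the window. Those 100 bases follow, 5′ to 3′, for the 8 genes with a core in them and, as examples without one in them, for Rpl6 and Mrpl23. Capitals mark an ETS core on either strand, or in Rps28 and Mrpl36 a YY1 core.
Rpl41 (chr10:128549169-128549268, minus strand): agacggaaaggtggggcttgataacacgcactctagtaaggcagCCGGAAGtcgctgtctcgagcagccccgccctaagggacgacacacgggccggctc
Rpl19 (chr11:98026610-98026709, plus strand): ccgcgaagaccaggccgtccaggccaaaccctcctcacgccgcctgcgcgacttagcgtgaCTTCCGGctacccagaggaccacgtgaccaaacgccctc
Rps18 (chr17:33955666-33955765, minus strand): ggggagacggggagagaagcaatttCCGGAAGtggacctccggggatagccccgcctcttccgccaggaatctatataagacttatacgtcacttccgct
Rps7 (chr12:28635954-28636053, minus strand): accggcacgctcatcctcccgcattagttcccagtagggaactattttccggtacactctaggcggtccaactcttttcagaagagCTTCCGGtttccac
Rps3a1 (chr3:86142669-86142768, minus strand): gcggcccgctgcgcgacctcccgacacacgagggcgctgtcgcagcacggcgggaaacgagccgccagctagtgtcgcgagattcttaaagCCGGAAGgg
Rps28 (chr17:33824563-33824662, minus strand): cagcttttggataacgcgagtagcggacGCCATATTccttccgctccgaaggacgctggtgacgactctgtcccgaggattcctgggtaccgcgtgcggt
Mrpl51 (chr6:125192100-125192199, plus strand): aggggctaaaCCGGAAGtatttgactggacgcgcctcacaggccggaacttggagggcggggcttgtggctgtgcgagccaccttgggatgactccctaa
Mrpl36 (chr13:73330909-73331008, plus strand): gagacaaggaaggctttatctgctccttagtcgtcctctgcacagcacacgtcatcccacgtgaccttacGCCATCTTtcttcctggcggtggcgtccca
Rpl6 (chr5:121204401-121204500, plus strand): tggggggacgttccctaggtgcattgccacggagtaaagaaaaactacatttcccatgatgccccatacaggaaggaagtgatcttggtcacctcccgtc
Mrpl23 (chr7:142532932-142533031, plus strand): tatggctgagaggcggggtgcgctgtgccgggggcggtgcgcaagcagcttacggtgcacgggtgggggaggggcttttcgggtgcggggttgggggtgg
A run of at least 8 pyrimidines also lay in the 30 bases before the start of Rps7, Mrpl36 and Mrps10, and is not marked here. Of these, Mrpl36 and Mrps10 fell. In Rpl7a the 30 bases before the start (on chr2, plus strand) end with a pyrimidine run, shown in capitals.
Rpl7a: tacttatcccccacaaTTCCCTCTTCTTTC

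Signals were those deposited, on a linear scale, and a difference is given as log2 with its standard error (SE) from one limma model over all arrays. A probe set was tested if it lay above the 40th percentile of its array on at least 3 arrays, which 7898 did, and a difference passed at a Benjamini-Hochberg adjusted p under 0.05 over all of them. Of the members, 102 were tested: 35 cytosolic probe sets of 28 genes and 67 mitochondrial probe sets of 59 genes. The other 23 were dim, with mean signals between 7.09 and 111. They include the only probe sets of Rpl32, Rpl39, Rpl39l, Rps14, Rps15, Rps20 and Rps27l and both probe sets of Mrpl14 and of Mrpl49. Another 44 probe sets carried a ribosomal protein symbol beside others, often those of pseudogenes, and were not members. Rps6, Rpl3 and Rplp1 were measured only by such probe sets. A few symbols follow the naming rule more than the role: Mrpl58 is a release factor for stalled ribosomes, and Mrps36 is also known as a subunit of the 2-oxoglutarate dehydrogenase complex. Of the tested members, 19 carry a mark of the array's design, a letter such as f, i, r or s in the probe set's name. Some of these letters, but not all, stand for probes that also match other transcripts. Levels of different probe sets are not compared, since a signal also depends on the probe.

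Some measures of the arrays moved with the groups. The signal of the 99th percentile spanned 8180 to 8499 in IGF1R, 8998 to 9419 in IGF1R-caPI3K and 9754 to 11962 in IGF1R-dnPI3K. Replicate 3 of IGF1R-dnPI3K had the highest single signal, 51164, and the lowest mean correlation with the other arrays, 0.927 against 0.947 to 0.956. The ratio of 3′ to 5′ probe sets of the Cre control spanned 1.05 to 1.26 in IGF1R and 1.74 to 1.89 with a PI3K transgene, and that of Gapdh 0.747 to 0.818 and 0.843 to 0.943. All 10 cardiomyocyte markers on the array were tested, and their summed signal was 159111 to 171650 in IGF1R, 169029 to 176356 in IGF1R-caPI3K and 184787 to 222244 in IGF1R-dnPI3K hearts. Of these 4 were higher and 1 lower with dominant negative PI3K, and 1 and 4 after quantile normalization. The summed signal of 9 fibroblast and matrix markers was 22346 to 26282 in IGF1R-dnPI3K and 30283 to 33074 in IGF1R hearts, and that of 10 skeletal muscle markers 10950 to 17164 and 19036 to 20657. That of 4 red blood cell markers was 20634 to 36544 and 16968 to 18234, and that of 11 myeloid markers 5642 to 7865 and 7711 to 8937. Of the 9 fibroblast and matrix markers, 4 were lower (Lum, Col1a1, Postn and Col3a1) and 0 higher. Dcn, Col1a2 and Dpt differed by 0.09, 0.14 and 0.06 and did not pass. Most of the skeletal muscle sum was Acta1, with means of 10140 and 16360. Of 6 skeletal muscle markers tested, 1 (Atp2a1, 0.86) was higher and 2 (Acta1 and Ryr1) lower. This sum is thus mainly that of 1 gene and gives no amount of skeletal muscle tissue. Most of the red blood cell sum was Hba-a1, with means of 25310 and 16930. It differed by 0.53, and by 0.08 after quantile normalization, while Alas2 and Slc4a1 were at -0.14 and -0.13. None of these 3 passed. In such bulk RNA, fewer cells of a type and less RNA per cell cannot be told apart. The part of these measures in the results was not tested. Because the brightest signals differ between arrays, main counts and medians are given on the deposited scale and after quantile normalization. That normalization gives every array the same distribution of signals. Counts by subunit and some other values are given on the deposited scale only.

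**Figure D1:**
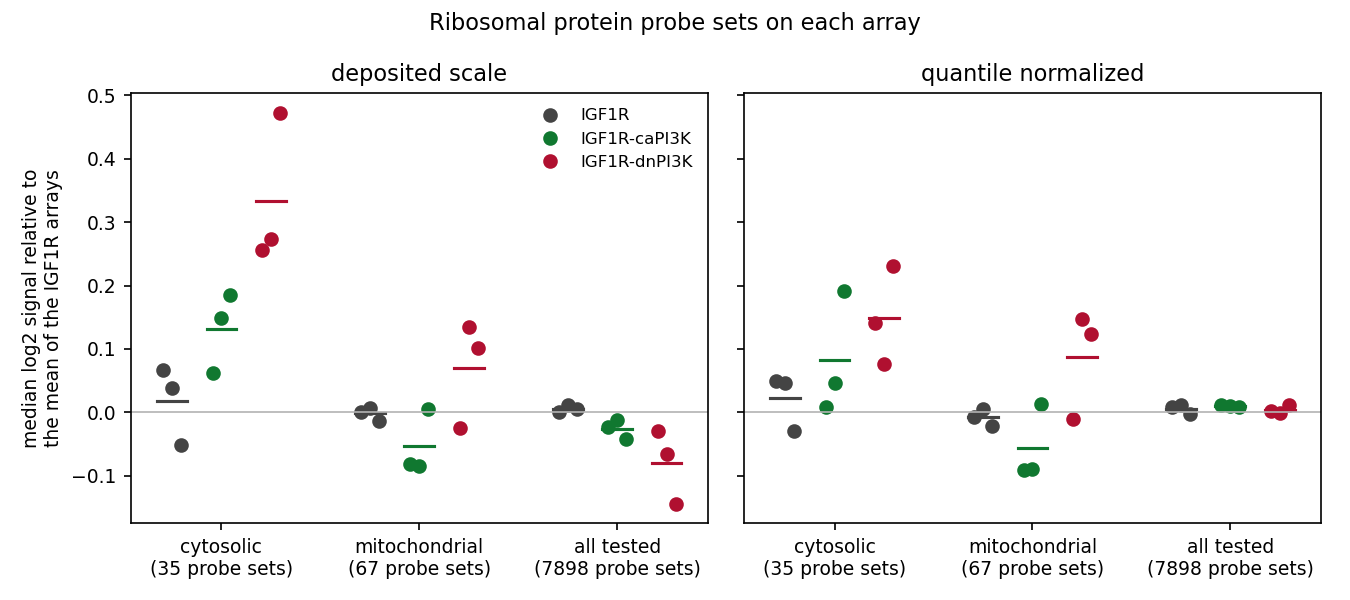
Median log2 signal of the tested cytosolic, mitochondrial and all probe sets on each array, relative to each probe set's mean over the 3 IGF1R arrays; points are arrays and lines group means. The cytosolic medians of IGF1R-dnPI3K lie at 0.256 to 0.472 on the deposited scale and at 0.076 to 0.23 after quantile normalization, above those of IGF1R on both.

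With dominant negative PI3K, 12 of the 35 cytosolic ribosomal protein probe sets rose against the receptor alone and 2 fell. Rpl41, Rpl19, Rpl6 and Rps18 rose by 1.55-fold to 1.77-fold. Over all probe sets 13.5% passed this comparison, 5.7% as higher and 7.8% as lower. The median log2 difference of the 35 was 0.32, against -0.09 over all 7898, with 25 of them above 0 and 10 below. With only the 6 arrays of this comparison in the model, none of the 35 passed, and 1.67% of all did. The 2 groups of arrays did not overlap in 20 of the 35 with IGF1R-dnPI3K higher and in 4 with it lower, against 13.6% and 20.8% of all probe sets. After quantile normalization 8 rose and 1 fell, with 6.23% and 6.46% of all, and the median was 0.13 against -0.01. The groups then did not overlap in 13 of the 35 with IGF1R-dnPI3K higher and in 4 with it lower. Over all 7898 these counts were 1262 and 1303.

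Rpl41, the smallest protein of the large subunit, gave signals of 18097, 16541 and 13955 in IGF1R, 24891, 25432 and 24338 in IGF1R-caPI3K, and 23968, 25638 and 37434 in IGF1R-dnPI3K hearts. The IGF1R arrays were all below the rest, and replicate 3 of IGF1R-dnPI3K stood far above every other array. Its rise with dominant negative PI3K was 0.82 ± 0.16 (SE, adjusted p = 0.0162), and 0.40 ± 0.10 after quantile normalization (adjusted p = 0.0262). Its probe set is one of those that carry the mark.

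Rps18, a protein of the head of the small subunit, gave 9602, 8891 and 8250 in IGF1R, 11724, 12154 and 11988 in IGF1R-caPI3K, and 12580, 12718 and 16514 in IGF1R-dnPI3K. On the deposited scale the 3 groups followed each other with no overlap. Rps18 rose by 0.64 ± 0.12 (adjusted p = 0.0146), and by 0.28 after quantile normalization (adjusted p = 0.036). After that normalization the groups with a PI3K transgene overlapped, and IGF1R-caPI3K minus IGF1R-dnPI3K was 0.02. Rpl19, a large subunit protein that forms a bridge to the small subunit, gave 6773, 7415 and 6210 in IGF1R, 8308, 8870 and 9187 in IGF1R-caPI3K, and 10214, 10084 and 15373 in IGF1R-dnPI3K. Again no group overlapped another, and replicate 3 of IGF1R-dnPI3K was the highest. Rpl19 rose by 0.78 ± 0.16 (adjusted p = 0.0163), and by 0.46 after quantile normalization (adjusted p = 0.0177).

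Rpl6, of the large subunit, had mean signals of 5902 ± 111 (SD, n = 3) in IGF1R and 9796 ± 2140 (SD, n = 3) in IGF1R-dnPI3K hearts, and rose by 0.71 ± 0.14 (adjusted p = 0.0163). Rpl8, which lies near the centre where peptide bonds are made, rose by 0.65 ± 0.14 (adjusted p = 0.0185). Rpl7a, of the large subunit, gave 5004, 5345 and 4974 in IGF1R and 6668, 7190 and 8074 in IGF1R-dnPI3K hearts, and rose by 0.51 ± 0.10 (adjusted p = 0.0159). These 3 also passed after quantile normalization, at 0.43, 0.36 and 0.32. Rpsa, a small subunit protein also known as a laminin receptor precursor, gave 2329, 2182 and 2144 in IGF1R, 2762, 2592 and 2825 in IGF1R-caPI3K, and 3101, 3048 and 3640 in IGF1R-dnPI3K. The groups did not overlap, and the rise of 0.55 ± 0.11 (adjusted p = 0.0156) was 0.48 after quantile normalization (adjusted p = 0.012), the one least changed by it among the 12.

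The other 5 that rose did not pass after quantile normalization. Rplp0, the base of the ribosomal stalk that recruits translation factors, gave 12592, 12757 and 11838 in IGF1R, 13749, 13909 and 14081 in IGF1R-caPI3K, and 15799, 15036 and 18558 in IGF1R-dnPI3K. It rose by 0.40 ± 0.10 (adjusted p = 0.0281) on the deposited scale, and the difference was 0.06 after quantile normalization (adjusted p = 0.627). Rps3a1, of the small subunit, likewise went from 0.36 (adjusted p = 0.0395) to -0.01 (adjusted p = 0.946). Rps28 and Rps7, of the small subunit, went from 0.70 to 0.36 and from 0.52 to 0.22, and the brighter probe set of Rpl10a, of the large subunit, from 0.41 to 0.26. Another bright probe set of Rps28, which carries the mark, passed on neither scale, at 0.32 (adjusted p = 0.0618) and -0.01. Rps4x, the X-linked form of a small subunit protein, did not pass on either scale, and its sign turned from 0.28 to -0.07. On quantile normalized values 1 further probe set passed, at 1.20 (adjusted p = 0.0484). It is a dim one of Rps28 that also carries the mark, with signals of 67 to 85 in IGF1R and 126 to 201 in IGF1R-dnPI3K. In all, 8 cytosolic probe sets passed on both scales.

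**Figure D2:**
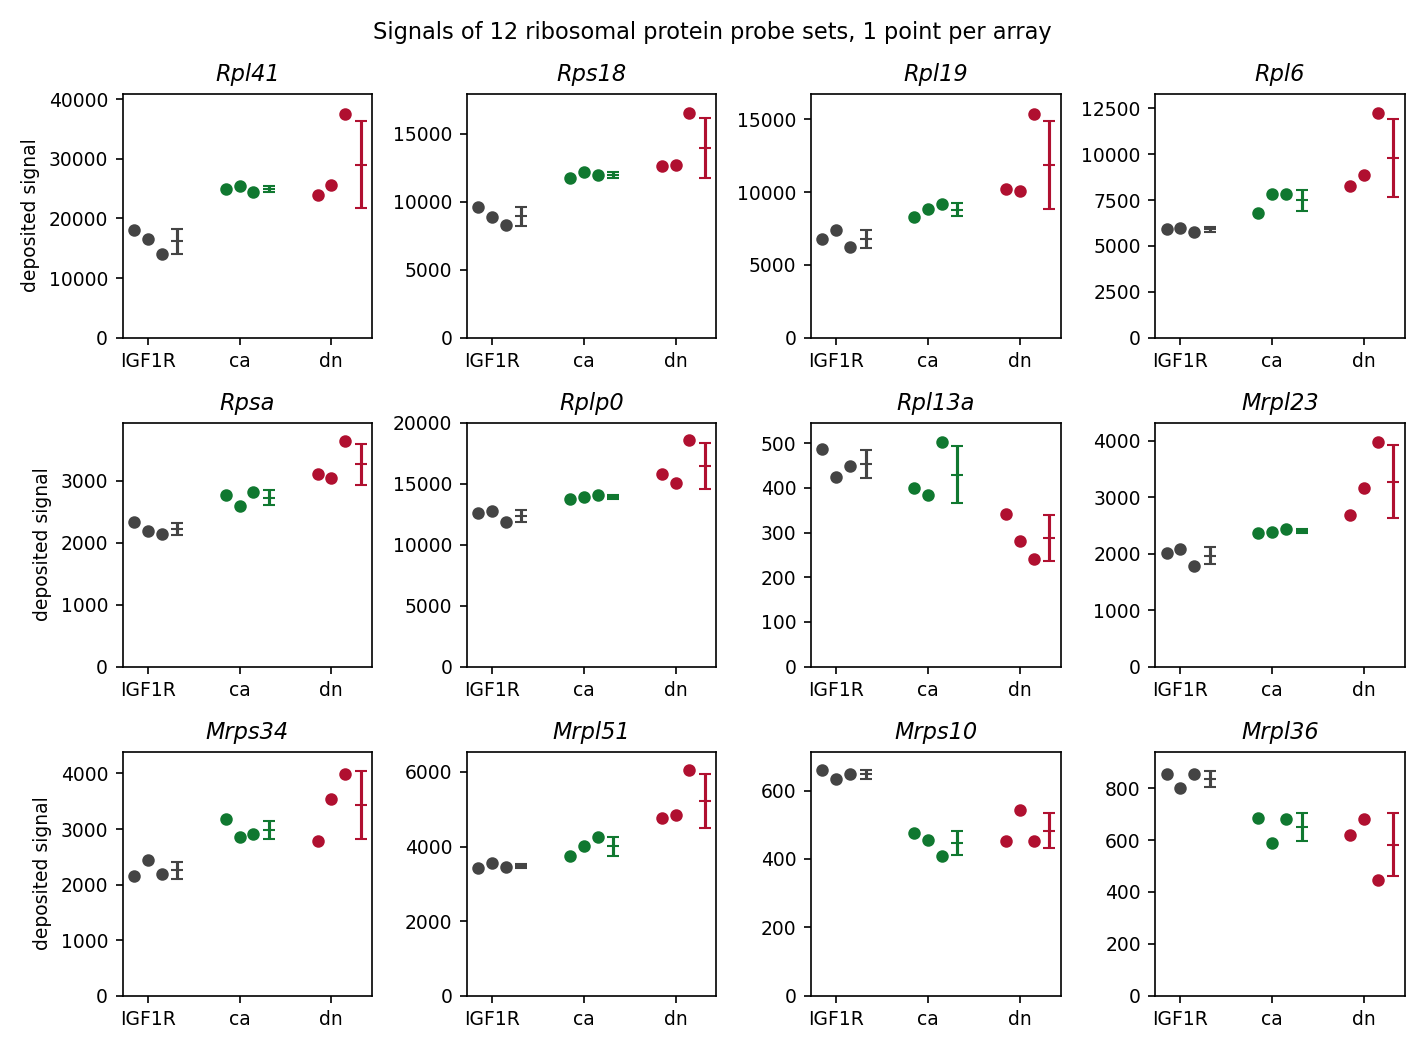
Deposited signals of 12 probe sets on each array (points), with the group mean and SD (bars, n = 3), for IGF1R, IGF1R-caPI3K (ca) and IGF1R-dnPI3K (dn). Rpl41, Rps18, Rpl19, Rpl6, Rpsa, Rplp0, Mrpl23, Mrps34 and Mrpl51 are higher in dn than in IGF1R, and Rpl13a, Mrps10 and Mrpl36 are lower.

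Rpl13a fell. This large subunit protein is also known for a role in silencing translation during inflammation. Its signals were 487, 424 and 448 in IGF1R, 400, 385 and 502 in IGF1R-caPI3K, and 341, 281 and 240 in IGF1R-dnPI3K, so that the last group lay below both others. The fall was -0.67 ± 0.17 (adjusted p = 0.0296), and -0.52 after quantile normalization (adjusted p = 0.0518). With arrays scaled to a common median, no member was called lower in this comparison: 17 cytosolic and 10 mitochondrial probe sets were then higher. The share of all probe sets called under that scaling is not given here, so these counts are no result about the members. That scaling moved the median of all probe sets from -0.09 to 0.08, so the directions here are relative to a baseline that differs by more than 0.1 between scalings.

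Counts by subunit were 7 higher and 2 lower of 16 tested probe sets for the cytosolic large subunit, and 5 higher and none lower of 19 for the small subunit. The median differences were 0.30 and 0.32. By signal the counts differed more. Of 18 cytosolic probe sets with a mean signal of 4000 or more, all 18 were above 0 and 11 rose, with a median of 0.41. Among all 407 probe sets as bright, the median was 0.29 and 34.6% were called higher. After quantile normalization 13 of the 18 were above 0 and 6 rose, with a median of 0.19, against 0.01 and 16.5% of the 407. Of the 12 cytosolic probe sets under 500, none rose and 1, that of Rpl13a, fell. These signal limits were chosen after the values were seen.

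**Figure D3:**
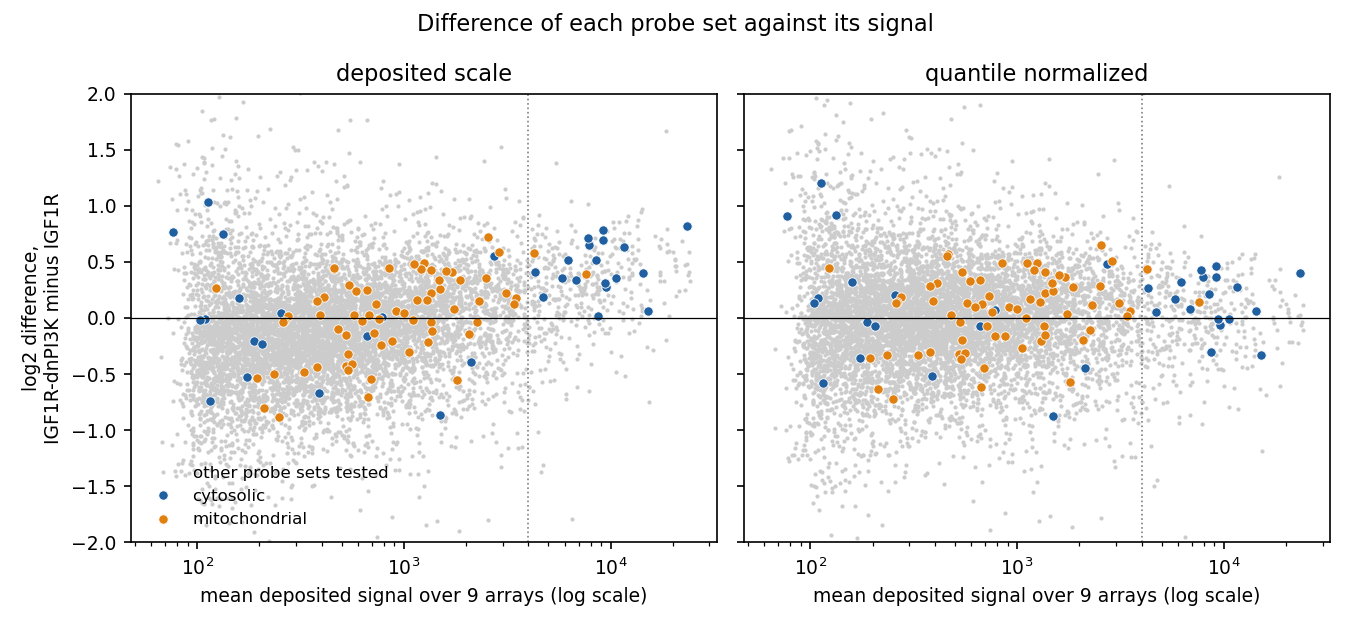
Log2 difference of IGF1R-dnPI3K minus IGF1R (vertical, drawn from -2 to 2) against the mean deposited signal over 9 arrays (horizontal, log scale) for the 7898 tested probe sets, on the deposited scale and after quantile normalization. The dotted line marks a signal of 4000, to the right of which all 18 cytosolic probe sets lie above 0 on the deposited scale and 13 of 18 after quantile normalization.

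Among the mitochondrial ribosomal proteins, 6 of 67 probe sets rose and 3 fell with dominant negative PI3K, 8.96% and 4.48%, against 5.7% and 7.8% of all probe sets. The median difference was 0.05, and 38 of 67 were above 0. The groups did not overlap in 13 with IGF1R-dnPI3K higher and in 12 with it lower, against 13.6% and 20.8% of all. On quantile normalized values these counts were 11 and 8, against 1262 and 1303 of all 7898. After quantile normalization 6 rose (8.96%) and 1 fell (1.49%), against 6.23% and 6.46% of all, and the median was 0.12 against -0.01. With 3 and 1 lower calls, these shares rest on few probe sets, and they were not tested against those of all. By subunit, 3 rose and 2 fell of 42 for the large subunit (median 0.04), and 3 rose and 1 fell of 25 for the small subunit (median 0.06).

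Mrpl23, a large subunit protein at the exit of the mitochondrial ribosome's tunnel, gave 2021, 2079 and 1791 in IGF1R, 2374, 2386 and 2443 in IGF1R-caPI3K, and 2689, 3167 and 3970 in IGF1R-dnPI3K. The groups followed each other with no overlap. It rose by 0.72 ± 0.14 (adjusted p = 0.0159), and by 0.65 after quantile normalization (adjusted p = 0.0105). Mrpl51, of the large subunit, gave 3437, 3547 and 3445, then 3752, 4009 and 4266, and 4752, 4855 and 6046 in the same order of groups, and rose by 0.58 ± 0.11 (adjusted p = 0.0162). Mrps34, of the small subunit, gave 2149, 2436 and 2186 in IGF1R, 3176, 2862 and 2913 in IGF1R-caPI3K, and 2776, 3537 and 3992 in IGF1R-dnPI3K. Both groups with a PI3K transgene were above IGF1R alone and overlapped each other. The rise of Mrps34 was 0.59 ± 0.14 (adjusted p = 0.0223). Mrps31 and Mrps28, of the small subunit, rose by 0.49 and 0.44. All 5 also passed after quantile normalization, and Mrps7, of the small subunit, passed only there, at 0.57 against 0.44 on the deposited scale (adjusted p = 0.0273 and 0.0674).

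Mrps10, of the small subunit, and Mrpl36, of the large subunit, fell. Mrps10 gave 660, 633 and 649 in IGF1R, 475, 455 and 408 in IGF1R-caPI3K, and 453, 542 and 452 in IGF1R-dnPI3K, and differed by -0.43 ± 0.13 (adjusted p = 0.0485). Mrpl36 gave 853, 801 and 855, then 683, 588 and 679, and 621, 680 and 447, and differed by -0.54 ± 0.16 (adjusted p = 0.0467). In both genes the 6 hearts with a PI3K transgene lay below the 3 without one. Neither passed after quantile normalization, where the differences were -0.33 and -0.45 (adjusted p = 0.108 and 0.0588).

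Probe sets of the same gene passed in opposite directions for Rpl10a and Mrpl18. For Rpl10a, the brighter probe set gave 3750, 3916 and 3662 in IGF1R and 4322, 5152 and 5657 in IGF1R-dnPI3K hearts, a rise of 0.41 ± 0.11 (adjusted p = 0.0378). The dimmer one gave 2239, 2493 and 1668 and then 1345, 1435 and 793, a difference of -0.87 ± 0.23 (adjusted p = 0.0338). For Mrpl18, which belongs to the large subunit, the brighter probe set gave 6490, 7285 and 5776 and then 8042, 8209 and 9398, a rise of 0.40 ± 0.11 (adjusted p = 0.0406). The dimmer one gave 2315, 2263 and 2129 and then 1434, 1808 and 1372, a difference of -0.55 ± 0.14 (adjusted p = 0.0279). After quantile normalization only the falling probe set of each gene passed, at -0.88 and -0.57. The dimmer one of Rpl10a and both of Mrpl18 carry the mark. The probe sets of each gene disagree, so no direction is given for these 2 genes. RefSeq names 100 pseudogenes after 25 of the 35 cytosolic genes, and 6 after 4 of the 61 mitochondrial ones. Without marked probe sets, 11 cytosolic probe sets were higher and 1 lower, and 5 mitochondrial higher and 2 lower, with the share of all in that fit not given here.

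**Figure D4:**
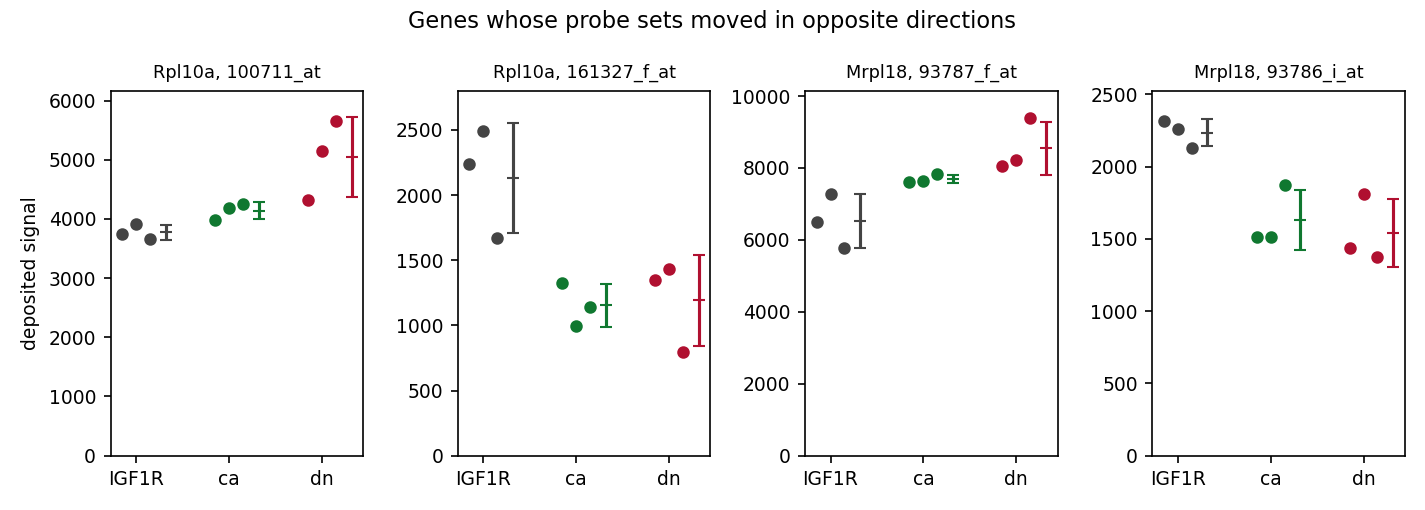
Deposited signals on each array (points) of the pairs of probe sets of Rpl10a and Mrpl18, with the group mean and SD (bars, n = 3). In each gene one probe set is higher and the other lower in IGF1R-dnPI3K (dn) than in IGF1R hearts.

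The counts of this comparison rest on the spread estimated over all 9 arrays. With only its 6 arrays in the model, no mitochondrial probe set passed either. Leaving out 1 array at a time gave 0 to 18 cytosolic and 0 to 17 mitochondrial calls. The cytosolic count was 3, 2 and 0 without IGF1R replicates 1, 2 and 3, and 9 without replicate 2 or 3 of IGF1R-caPI3K. The mitochondrial count was 1, 1 and 0 without the IGF1R replicates, 5 without any one of IGF1R-caPI3K, 17 without replicate 1 of IGF1R-dnPI3K and 4 without its replicate 3. Without that replicate 3 the cytosolic count was 10, all higher, with 8.26% of all passing and a median difference of 0.24. Of the fits without 1 array, only this one has the share of all beside it. The other counts show how calls depend on the arrays and are no result about the members. With quantile normalization the counts were 1 cytosolic and 2 mitochondrial, and 4.04% of all, in the 6 arrays alone. They were 4 and 3, and 6.24% of all, without that replicate 3. The numbers at the end of the sample titles fall into 3 series, and with the series as a block no member passed (5 of all 7898). Replicate 1 is the one IGF1R-dnPI3K array that shares a series with another group, so in that fit the other two carry no weight in this comparison.

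With constitutively active PI3K, no ribosomal protein probe set of either class passed against the receptor alone, where 0.215% of all did (limma, all arrays), and none after quantile normalization, with 0.988% of all. At an unadjusted p under 0.05 there were 11 cytosolic and 18 mitochondrial probe sets, with 18.4% of all, and 11 and 17 after quantile normalization, with 18.9% of all. The cytosolic median was 0.13 and the mitochondrial -0.07, against -0.04 over all, and after quantile normalization 0.06 and -0.08. The groups did not overlap in 13 cytosolic probe sets with IGF1R-caPI3K higher and 3 with it lower, against 14% and 18.8% of all. In the mitochondrial class these counts were 8 and 19. After quantile normalization they were 9 and 4 cytosolic, 8 and 14 mitochondrial, and 1201 and 1265 of all 7898. The lowest cytosolic adjusted p values were those of Rpl41 (0.63 ± 0.16, adjusted p = 0.102), Rpl37a (0.49 ± 0.13, adjusted p = 0.102), the marked probe set of Rpl10a (-0.88 ± 0.23, adjusted p = 0.103) and Rps18 (0.43 ± 0.12, adjusted p = 0.112). Rpl37a, a zinc finger protein of the large subunit, gave 4113, 3717 and 4032 in IGF1R, 5920, 4818 and 5948 in IGF1R-caPI3K, and 4228, 4135 and 5245 in IGF1R-dnPI3K. Its mean was highest in IGF1R-caPI3K, whose arrays overlapped those of IGF1R-dnPI3K, whereas Rpl19 and Rps18 were highest in IGF1R-dnPI3K on the deposited scale. After quantile normalization Rpl19 was still highest there, but Rps18 was not. Of the mitochondrial members Mrps10 had the lowest adjusted p (-0.54 ± 0.13, adjusted p = 0.0865).

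This comparison also depended on which arrays set the spread. With its 6 arrays alone, 8.85% of all probe sets passed, and 7 cytosolic probe sets were higher (Rpl41, Rpl37a, Rps18, Rpl8, Rpl19, Rpl6 and Rpl7a) and 1 lower (the marked one of Rpl10a). Of the mitochondrial probe sets, those of Mrps34 and 1 of Mrps18a were then higher and those of Mrps10, Mrpl33, Mrpl55 and Mrpl18 (the marked falling one) lower. Leaving out only replicate 3 of IGF1R-dnPI3K, an array outside this comparison, gave the same 8 cytosolic calls, and Mrps10 and Mrpl55 as lower, with 6.96% of all passing. With quantile normalization and only its 6 arrays, 5 cytosolic (3 higher, 2 lower) and 4 mitochondrial probe sets (2 and 2) passed, and 8.18% of all. Quantile normalization without replicate 3 of IGF1R-dnPI3K gave 5 cytosolic and 2 mitochondrial calls, and 6.6% of all.

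**Figure D5:**
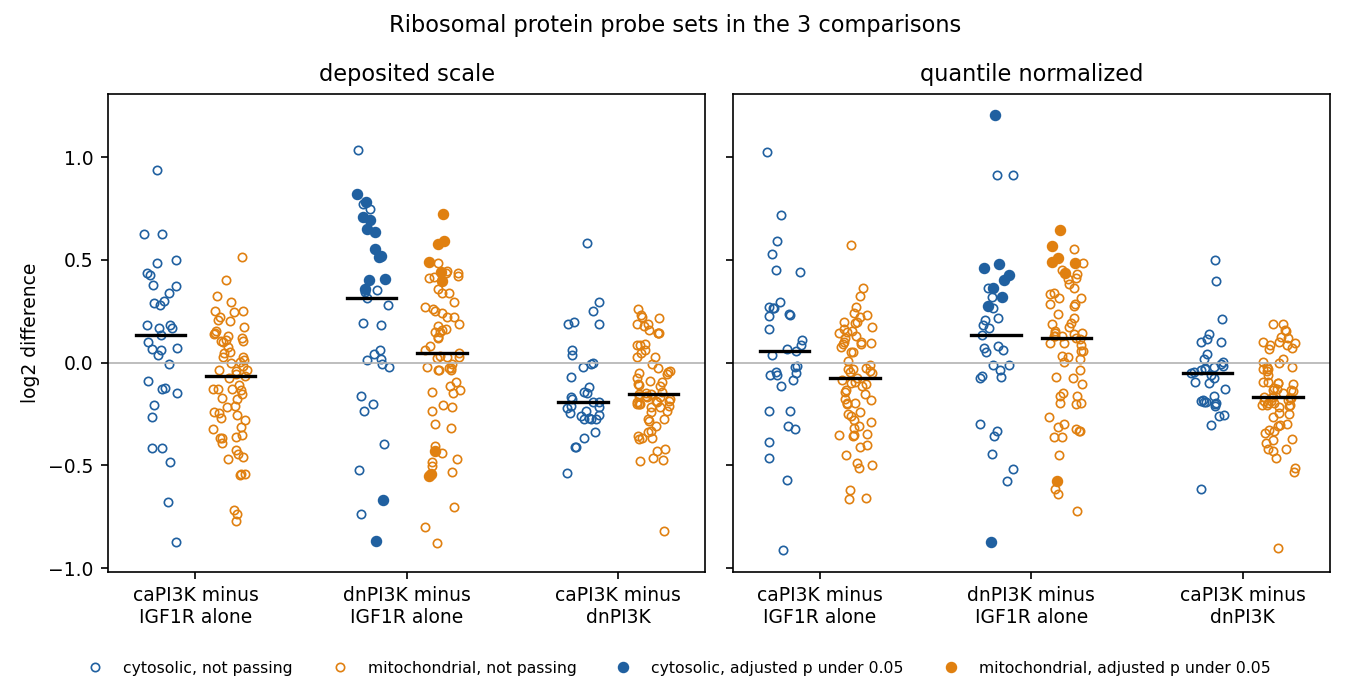
Log2 differences of the 35 cytosolic and 67 mitochondrial probe sets in the 3 comparisons, on the deposited scale and after quantile normalization. Points are probe sets, filled at an adjusted p under 0.05, and black lines are medians; only the comparison of IGF1R-dnPI3K with IGF1R has filled points, with 14 cytosolic and 9 mitochondrial ones on the deposited scale.

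Set against each other, active and dominant negative PI3K differed in no ribosomal protein probe set at the threshold, where 1.24% of all passed (limma, all arrays), and in none after quantile normalization, with 1.54% of all. At an unadjusted p under 0.05 there were 12 cytosolic and 6 mitochondrial probe sets, with 15.4% of all, and 3 and 9 after quantile normalization, with 14.6% of all. The cytosolic median of IGF1R-caPI3K minus IGF1R-dnPI3K was -0.19 and the mitochondrial -0.16, against 0.05 over all, and 27 of 35 and 49 of 67 were below 0. After quantile normalization the medians were -0.05 and -0.17. The groups did not overlap in 14 cytosolic probe sets with IGF1R-caPI3K lower and in 1 with it higher, against 8.66% and 10.9% of all. For mitochondrial probe sets the counts were 18 and 1. After quantile normalization they were 7 and 2 cytosolic, 15 and 0 mitochondrial, and 725 and 714 of all 7898. The cytosolic probe set with IGF1R-caPI3K higher on the deposited scale was Rpl13a (0.58 ± 0.17, adjusted p = 0.139), which had the lowest cytosolic adjusted p. Of the mitochondrial members Mrps36 had the lowest, with signals of 2042, 2153 and 2303 in IGF1R-caPI3K and 2511, 3105 and 3411 in IGF1R-dnPI3K (-0.46 ± 0.13, adjusted p = 0.126). Mrpl51, Mrpl23, Mrps28 and Mrpl58 followed, at -0.37, -0.43, -0.37 and -0.48. Rpl41 differed by -0.19 and turned to 0.04 after quantile normalization. Without replicate 1 of IGF1R-dnPI3K, 2 cytosolic (1 higher, 1 lower) and 4 mitochondrial probe sets (all lower) passed. That fit is given without the share of all probe sets, so its counts show only a dependence on the arrays.

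The group means were ordered IGF1R, then IGF1R-caPI3K, then IGF1R-dnPI3K as the highest in 18 of 35 cytosolic probe sets (51.4%) and 22 of 67 mitochondrial ones (32.8%), against 18.7% of all. After quantile normalization the counts were 12 and 22, against 22.6% of all. The reverse order was found in 3 cytosolic probe sets, or 8.57%, on both scales, against 30.1% of all on the deposited scale and 23.5% after quantile normalization. Both comparisons with IGF1R share its 3 arrays, so an order of the 3 means is no independent support for either.

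The 40 tested probe sets with several symbols were counted apart. With dominant negative PI3K 15 were higher and 4 lower, with a median of 0.29, and after quantile normalization 7 were higher and 3 lower, with a median of 0.13. Over all probe sets the shares were 5.7% higher and 7.8% lower, and 6.23% and 6.46% after quantile normalization. Among ribosomal proteins with other names, that of Fau, which encodes a fusion of a ubiquitin-like protein and Rps30, was too dim to test. Dap3 and Ptcd3, of the small mitochondrial subunit, differed by 0.44 and 0.21 and did not pass.

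For the lists of related genes, 1 probe set per gene was counted, the tested one with the highest mean signal. The shares beside them are over all probe sets. Among genes that build ribosomes, 4 of 60 tested rose and 2 fell with dominant negative PI3K, and the median was -0.04, where 5.7% and 7.8% of all probe sets passed. Nhp2, of the particles that make pseudouridine in ribosomal RNA, rose by 0.91 ± 0.22 (adjusted p = 0.0269), Polr1a, the largest subunit of RNA polymerase I, by 0.75 ± 0.19 (adjusted p = 0.0303), and Imp3, of the small subunit processome, by 0.61 ± 0.12 (adjusted p = 0.0158). Nmd3, which carries the large subunit out of the nucleus, differed by -0.62 ± 0.15 (adjusted p = 0.0282). After quantile normalization 6 rose and none fell.

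Of 19 tested TOP messenger RNAs that encode no ribosomal protein, 2 rose and 2 fell, with a median of 0.20, against the same 5.7% and 7.8% of all. Eef1d, of the factor that recharges elongation factor 1, had means of 1612 ± 18.8 (SD, n = 3) in IGF1R and 2732 ± 425 (SD, n = 3) in IGF1R-dnPI3K hearts and rose by 0.75 ± 0.12 (adjusted p = 0.00915). Eef1a1, which brings transfer RNAs to the ribosome, rose by 0.53 (adjusted p = 0.0223), and its difference was 0.15 after quantile normalization (adjusted p = 0.253). Eif3e, of initiation factor 3, and Ipo5, an importin that carries ribosomal proteins into the nucleus, fell, at -0.99 ± 0.22 (adjusted p = 0.0204) and -0.69 ± 0.16 (adjusted p = 0.0247). The median was -0.02 after quantile normalization, with 1 higher and 3 lower.

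In the list of mitochondrial translation and transcription 2 of 22 tested genes rose and 3 fell, again against 5.7% and 7.8% of all. Eral1, which helps to assemble the small mitochondrial subunit, rose by 0.60 ± 0.17 (adjusted p = 0.0393), and Iars2, the mitochondrial isoleucyl transfer RNA synthetase, by 0.42 (adjusted p = 0.0416). Mtif2, the initiation factor of mitochondrial translation, and Nsun4, which methylates ribosomal RNA of the mitochondrial small subunit, differed by -0.57 ± 0.11 (adjusted p = 0.0163) and -0.81 ± 0.20 (adjusted p = 0.0281). In the other comparisons no gene of these 3 lists passed on the deposited scale. With active PI3K, 2 genes of the mitochondrial translation list were lower than with the receptor alone after quantile normalization.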

How the data were processed

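Each of 9 samples had a column of signals in 1 deposited table. Per the labels these are mouse heart arrays; no source used here says how the authors computed the signals. From the values, the deposited intensity is linear and scaled to nearly the same trimmed mean on each array. Genes were named from the platform annotation (10833 probe sets with 1 symbol, 396 with several, 1193 with none, 66 controls). Signals under 32.4, the 20th percentile of positive values, were raised to it before log2. Differences were tested with limma 3.58.1 in R 4.3.3 (lmFit, then eBayes with a variance trend) over all 9 arrays, with the filter and threshold given in the text. The code was tested on simulated data. No pair of arrays held identical values. The titles give each sample a number of its own, taken here as that of 1 mouse. They say no more on its source, so p-values measure only the spread between these samples. The number of arrays limits the precision. Genes named were, per comparison and class, up to 10 with the largest difference in each direction among those passing, or the 5 with the lowest p where fewer passed, plus genes with opposed probe sets, a fixed set of well-known members (its brightest tested probe set, a reading chosen after the values were seen) and up to 4 per related list. Rps3a1 and the members listed under other fits were named after their values were seen. The members and lists were chosen with earlier results of these data known. Alternatives were quantile or median scaling, another floor, no filter, no trend, fewer arrays, a block by title number, fewer probe sets, and, chosen after seeing the data, quantile normalization without IGF1R-dnPI3K replicate 3.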

Additional observations from a re-analysis of the deposited data

How the results depend on the processing

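Medians kept their direction under every alternative run except the mitochondrial ones named here. Counts in this section show how calls depend on the processing and are not set beside the share of all. After quantile normalization the cytosolic count of IGF1R-dnPI3K against IGF1R was 9, its median 0.133 and the mitochondrial median 0.122, and the cytosolic medians were 0.056 for IGF1R-caPI3K against IGF1R and -0.05 against IGF1R-dnPI3K. With only the 2 groups compared as well, the medians were the same and the counts 1 and 2 (dnPI3K against IGF1R) and 5 and 4 (caPI3K against IGF1R), cytosolic first. Quantile normalization without IGF1R-dnPI3K replicate 3 gave 4 and 3 with a cytosolic median of 0.087, then 5 and 2 with 0.056, and -0.078 between the PI3K groups. With only the 2 groups compared on the deposited scale the counts were 0 and 0, and 8 and 6. Scaling to a common median gave medians of 0.234 and 0.036 (caPI3K against IGF1R), 0.484 and 0.215 (dnPI3K against IGF1R), and -0.223 for mitochondrial probe sets between the PI3K groups. Without the filter the dnPI3K counts were 3 and 3, with cytosolic medians of 0.135 and, for caPI3K, 0.069. Without the variance trend they were 9 and 4. With the title number series as a block they were 0 and 0, with mitochondrial medians of -0.029 against IGF1R and -0.064 between the PI3K groups. Leaving out 1 array at a time gave counts of 0 to 18 and 0 to 17 (dnPI3K against IGF1R), 0 to 8 and 0 to 2 (caPI3K against IGF1R), and 0 to 2 and 0 to 4 (between them). The medians then ranged over 0.239 to 0.377 and 0.01 to 0.117, over 0.085 to 0.152 and -0.085 to -0.032, and over -0.237 to -0.148 and -0.192 to -0.12. For Rps4x the sign turned after quantile normalization to -0.085 (caPI3K) and -0.067 (dnPI3K), the same with only 2 groups, and to -0.085 and -0.015 without IGF1R-dnPI3K replicate 3. Rpl41 between the PI3K groups turned to 0.042 after quantile normalization, also with only 2 groups, to 0.039 when that was combined with leaving out IGF1R-dnPI3K replicate 3, and ranged over -0.316 to 0.005 when arrays were left out in turn. Rpl13a in caPI3K against IGF1R turned to 0.014 with a common median. The causes were not tested. Of the other values for single genes, 748 kept direction and side, 215 lost the threshold and 33 gained it. No paired analysis was possible because each title number belongs to 1 sample, so that groups share only the number series, used as the block above.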
